A study of Homo sapiens with 8 samples.

Results

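VGLL1 encodes vestigial-like 1, a transcriptional cofactor without a DNA-binding domain of its own, and it is described here together with the transcription factors it binds and the cofactors that share them. The set holds 9 genes of the 18164 in the deposited table, found by symbol: the cofactors VGLL1, VGLL3, VGLL4, YAP1 and WWTR1 (the gene of TAZ) and the factors TEAD1, TEAD2, TEAD3 and TEAD4. VGLL1 was selected on its measured difference in TPM between the groups, being higher in every tumor of the NMN group than in every tumor of the Vehicle group. That difference is therefore given as a description with no test, and the other 8 genes were listed for their relation to it.

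RNA was sequenced from 8 tumors of the HCC1937 line, derived from a human breast cancer without hormone receptors or HER2 amplification, grown in the inguinal mammary fat pads of NCG mice, which carry edited Prkdc and Il2rg genes and lack mature lymphocytes. Treatment began once tumors had formed: 4 tumors came from hosts given NMN (nicotinamide mononucleotide, from which cells make NAD+), dosed at 500 mg/kg/day, and 4 from hosts given vehicle. The sources used here do not give the make-up of the vehicle, the length of treatment or the age and sex of the mice. All 8 tumors share the line and the host strain, so they represent 1 cell line, and such hosts keep myeloid, stromal and muscle cells. The tumors are called Vehicle 1 to 4 and NMN 1 to 4, and whether each came from a separate mouse is not stated, so the p-values reflect only how much these 8 samples vary, which may be technical. Levels are in TPM, a unit that corrects for gene length and is relative to each library's total, so that levels of different genes can be compared within a tumor. Read depth is not kept in TPM and is unknown.

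TEAD proteins recognise short DNA sites through a conserved domain but need a cofactor to activate a gene. YAP and TAZ are the best known of these cofactors and the output of the Hippo pathway: the kinases STK3 and STK4 with SAV1 activate LATS1 and LATS2 with the MOB1 proteins, which phosphorylate YAP and TAZ and hold them in the cytoplasm. VGLL proteins bind TEADs through a short Tondu motif on a surface that overlaps the one used by YAP. VGLL4 competes with YAP and represses its targets, whereas VGLL1 can act as a cofactor in its own right and is known as a gene of basal-like breast tumors, trophoblast and urothelium.

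In GENCODE 29 (GRCh38) VGLL1 lies on chromosome X from 136532152 to 136556807 on the plus strand. TEAD sites share the 6 letters GGAATG, or CATTCC on the other strand, and this motif was searched on both strands, with overlaps allowed, in the 250 bases before each RefSeq start (GRCh38.p14). Of 35116 such windows, 11.9% held at least 1 copy and 0.94% at least 2. For 7 of the 9 members 13 windows were found, of which 2 (15.4%) held the motif, near the share of all windows. They were those of VGLL1, 157 bases before the start, and of YAP1, 162 bases before it. No window was matched for TEAD1 or TEAD4, while VGLL4, TEAD2 and WWTR1 each had more than 1. Of 18 windows of 16 known YAP and TAZ target genes, described further on, 44.4% held it, and CCN2, the classical target, held 3 copies. CCN1, another of the targets, had no matched window. The stretches below show the copies, in capitals, in VGLL1 (chrX:136531965-136532151, plus strand), in CCN2 (chr6:131951374-131951622, minus strand) and, for 1 of its 2 copies, in ANKRD1 (chr10:90921277-90921337, minus strand). Each ends where the first GENCODE exon begins, and a match is a run of letters, not a measured binding site.
VGLL1: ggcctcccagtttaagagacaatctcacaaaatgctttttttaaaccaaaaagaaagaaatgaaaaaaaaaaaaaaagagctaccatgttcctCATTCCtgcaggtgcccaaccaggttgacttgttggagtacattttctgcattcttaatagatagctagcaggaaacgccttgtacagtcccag
CCN2: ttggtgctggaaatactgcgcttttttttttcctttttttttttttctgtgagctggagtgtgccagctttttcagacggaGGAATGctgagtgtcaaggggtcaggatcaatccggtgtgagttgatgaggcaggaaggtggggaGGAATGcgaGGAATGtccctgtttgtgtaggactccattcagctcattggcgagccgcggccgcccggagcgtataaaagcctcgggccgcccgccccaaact
ANKRD1: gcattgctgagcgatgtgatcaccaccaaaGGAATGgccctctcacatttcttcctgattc

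VGLL1 was the most abundant of the 9 transcripts in all 8 tumors. It stood at 91.1, 73.9, 97.4 and 78.7 TPM in Vehicle 1 to 4 and at 141, 162, 143 and 116 TPM in NMN 1 to 4. The groups did not overlap: NMN 4, the lowest of its group, lay above Vehicle 3, the highest of the other. The NMN mean was 140.5 ± 18.7 TPM and the Vehicle mean 85.2 ± 10.8 TPM (SD, n = 4). In a linear model of log2(TPM + 1) over all 13358 genes that reached 1 TPM in at least 4 libraries (limma), the log2 fold change was 0.71 ± 0.12 (estimate ± SE), or 1.64-fold. Among all 18164 genes VGLL1 ranked from 1615 to 1987 by level in Vehicle tumors and from 856 to 1362 in NMN tumors. With each library left out in turn its log2 fold change ran from 0.64 (without NMN 2) to 0.80 (without NMN 4).

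**Figure D1:**
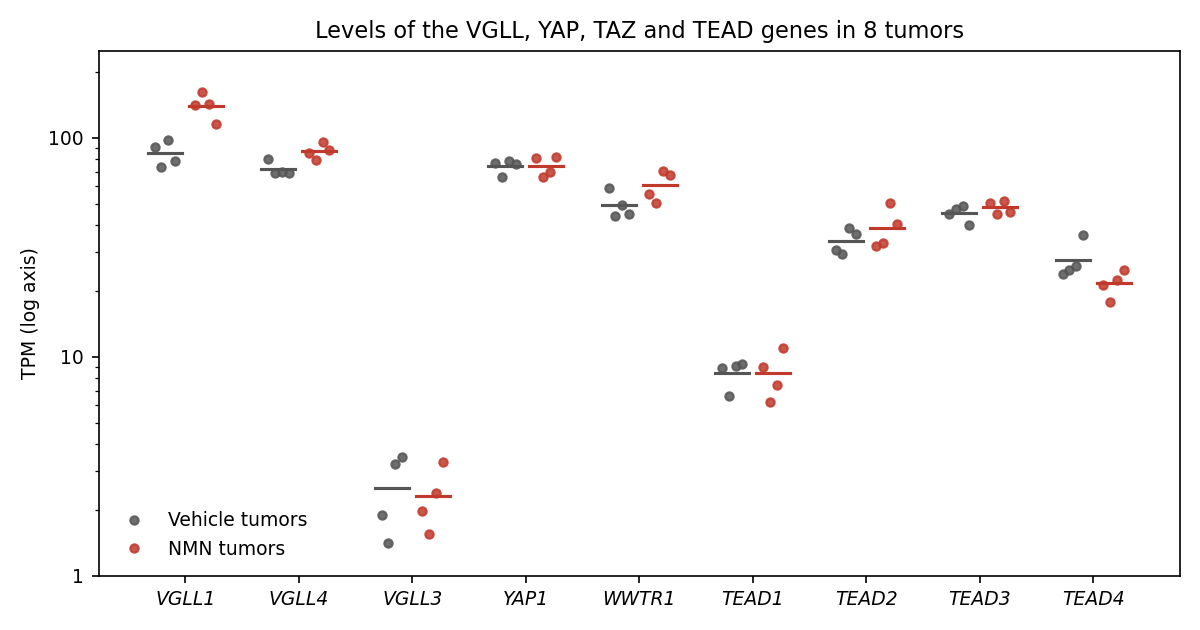
Level of each gene in TPM on a log axis, with 1 point per tumor (grey for Vehicle, red for NMN) and a bar at the mean of 4 tumors. VGLL1 is the highest gene in each tumor and the groups are apart for it (73.9 to 97.4 against 116 to 162 TPM), whereas the 8 other genes overlap between groups.

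NMN 4 stood apart from NMN 1 to 3 in its content of muscle transcripts. Of 16 skeletal muscle markers, which include ACTA1 and the MYH genes, 15 were tested and 0 passed after adjustment. All 15 had an unadjusted p under 0.05 with lower levels in NMN tumors, against 2.15% of all tested genes. The 16 markers summed to 482 to 2869 TPM in Vehicle tumors, 712 TPM in NMN 4 and 32.8 to 54.1 TPM in NMN 1 to 3. In NMN 1 to 3 most of that sum came from a single gene, TNNI2, at 41.15, 23.71 and 38.3 TPM. Several muscle markers were at 0 in 1 or more of NMN 1 to 3, among them MYH2, MYH4, MYLPF and ACTN3, and TTN was at 0 in all 3. TEAD and VGLL genes are also active in muscle, and VGLL2, the family member of skeletal muscle, was listed at 0 in 7 tumors and at 0.06 TPM in Vehicle 4. Of 12 fibroblast markers 6 were tested. An unadjusted p under 0.05 with lower levels in NMN tumors was reached by 3 of the 6, against 2.15% of all tested genes. They were the collagen genes COL1A1, COL1A2 and COL3A1. Of the 6 tested markers 5 had the lower mean log2 level in NMN tumors and 1, FBLN1, the higher. FBLN1 had a mean of 63.2 TPM in NMN and 54.0 TPM in Vehicle tumors, and its groups overlapped. The fibroblast list summed to 243 to 348 TPM in Vehicle and 187 to 302 TPM in NMN tumors. DCN and LUM, which define fibroblasts, were at 0 in all Vehicle tumors and at most 0.05 TPM in NMN tumors. Among 10 breast epithelial and basal markers 3 had an unadjusted p under 0.05 with higher levels in NMN tumors, against 4.79% of all tested genes. These were EPCAM, KRT8 and KRT18, and 0 passed. The list as a whole had no common direction: the mean log2 level was higher in NMN tumors for 5 of the 10 and lower for 5. KRT8, a luminal keratin gene, was at 542, 315, 537 and 265 TPM in Vehicle 1 to 4 and at 879, 707, 909 and 841 TPM in NMN 1 to 4. Its groups did not overlap, as in 2.08% of all tested genes with NMN above. The NMN mean of KRT8 was 2.01 times the Vehicle mean (adjusted p = 0.221). The part of these cell types and markers in the values for VGLL1 and the other members was not tested, and in bulk RNA fewer cells of a type and less RNA per cell cannot be told apart. The basal keratin genes KRT5, KRT14 and KRT17 lay at 1433 TPM or more in each tumor. ESR1 was at 3.37 to 6.00 TPM, PGR at 0.02 TPM or less and ERBB2 at 77.6 to 130 TPM. No tumor with hormone receptors or HER2 amplification was measured beside them, so these levels do not test the absence of either.

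No gene passed the test between NMN and Vehicle tumors. Of 13358 genes, 0 (0%) had an adjusted p under 0.05 (limma, Benjamini-Hochberg, two-sided). An unadjusted p under 0.05 was reached by 927 genes (6.94%), of which 640 (4.79%) were higher and 287 (2.15%) lower under NMN. After quantile normalization these were 640 and 514. Among the 8 members other than VGLL1 0 passed, and 1, VGLL4, had an unadjusted p under 0.05. TEAD4 and WWTR1 joined it after median-of-ratios scaling, after quantile normalization, with a robust fit and without Vehicle 1. In these settings 1126, 1154, 901 and 1201 of all tested genes reached that threshold, against 927 in the main fit. Without NMN 3 none of the 8 reached it.

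VGLL4, the antagonist of YAP, was the second most abundant member in NMN tumors. It was at 80.2, 68.8, 69.9 and 69.4 TPM in Vehicle 1 to 4 and at 85.7, 79.4, 96.1 and 88.3 TPM in NMN 1 to 4. In the Vehicle group 3 tumors lay within 68.8 to 69.9 TPM and Vehicle 1 stood above them, so that NMN 2 fell just below Vehicle 1 and the other 3 NMN tumors above all Vehicle tumors. Its log2 fold change of 0.27 ± 0.10 had a 95% interval of 0.06 to 0.49 (adjusted p = 0.534). VGLL3, a cofactor of mesenchymal cells and muscle, was the least abundant member in each tumor. It was at 1.90, 1.41, 3.23 and 3.5 TPM in the Vehicle tumors and at 1.98, 1.55, 2.39 and 3.29 TPM in the NMN tumors. The NMN values lay inside the Vehicle range, and the log2 fold change was -0.07 ± 0.24, from -0.59 to 0.46 (adjusted p = 0.987).

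YAP1 showed almost the same mean in both groups. Its levels were 76.9, 66.0, 78.7 and 76.0 TPM in Vehicle 1 to 4 and 80.6, 65.9, 69.8 and 81.6 TPM in NMN 1 to 4, so that the lowest tumor of each group lay near 66 TPM. The log2 fold change was -0.0009 ± 0.11, and its 95% interval from -0.23 to 0.23 leaves room for a change of up to 1.17-fold in either direction (adjusted p = 0.999). WWTR1, whose product TAZ is the close relative of YAP, was at 58.9, 43.8, 49.6 and 45.1 TPM in the Vehicle tumors and at 55.3, 50.6, 70.4 and 67.5 TPM in the NMN tumors. NMN 3 and NMN 4 lay above all Vehicle tumors, while NMN 1 and NMN 2 lay below Vehicle 1. Its log2 fold change was 0.30 ± 0.14, from -0.0001 to 0.59 (adjusted p = 0.719). The ratio of YAP1 to WWTR1 was 1.30 to 1.68 in Vehicle tumors and 0.99 to 1.46 in NMN tumors and overlapped.

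**Figure D2:**
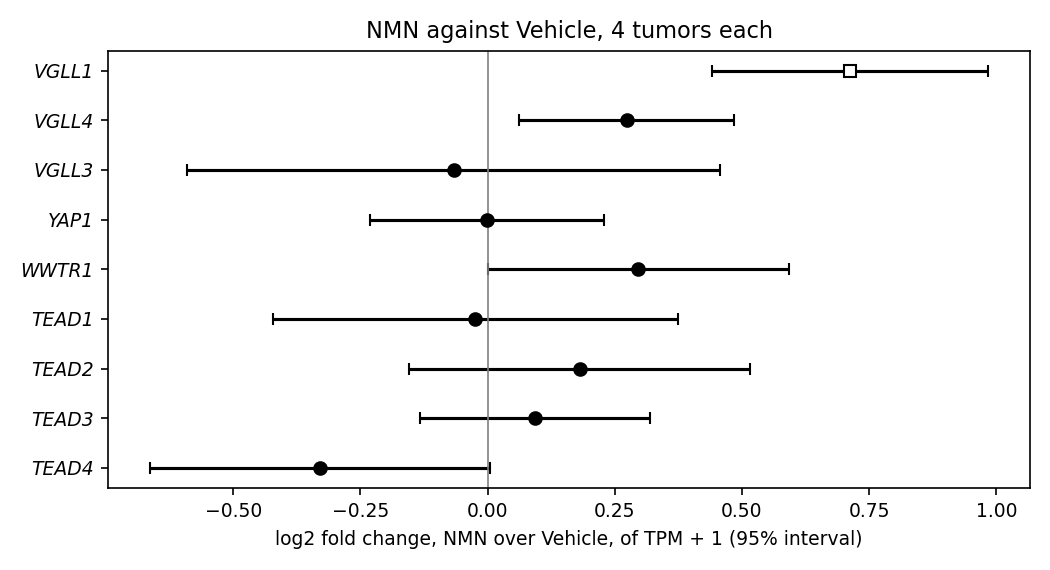
Log2 fold change, NMN over Vehicle, of TPM + 1 for each gene, with its 95% interval from the model over all genes. The open square is VGLL1 (0.71), which was chosen for this difference. Of the other 8 the interval of VGLL4 (0.06 to 0.49) lies above 0 before adjustment, and the other 7 include 0.

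Each of the 4 TEAD genes was present, in the same order in each group: TEAD3 was the most abundant, then TEAD2, TEAD4 and TEAD1. TEAD3, an epithelial and placental family member, was at 45.1, 47.1, 48.9 and 40.0 TPM in Vehicle 1 to 4 and at 50.6, 45.1, 51.7 and 45.9 TPM in NMN 1 to 4. TEAD2 was at 30.9, 29.5, 38.8 and 36.3 TPM in the Vehicle tumors and at 32.2, 33.1, 50.2 and 40.3 TPM in the NMN tumors. Both had the higher mean in NMN tumors and overlapped between groups, with log2 fold changes of 0.09 ± 0.10 for TEAD3 (adjusted p = 0.951) and 0.18 ± 0.15 for TEAD2 (adjusted p = 0.922). TEAD1 was at 8.86, 6.64, 9.03 and 9.26 TPM in the Vehicle tumors and at 8.95, 6.22, 7.45 and 10.9 TPM in the NMN tumors, a log2 fold change of -0.02 ± 0.18 (adjusted p = 0.996). Its NMN values reached both above and below those of the Vehicle group.

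TEAD4, known for its role in the trophectoderm and as a partner of VGLL1, had the lowest fold change of the 9. It was at 24.0, 24.9, 26.0 and 35.9 TPM in Vehicle 1 to 4 and at 21.3, 17.9, 22.5 and 25.0 TPM in NMN 1 to 4. NMN 1 to 3 lay below all Vehicle tumors and NMN 4 within their range, and Vehicle 4 stood far above the rest of its group. The log2 fold change was -0.33 ± 0.15, from -0.66 to 0.0039 (adjusted p = 0.727), and without Vehicle 4 it was -0.20. As a share of the summed TEAD transcripts, a measure chosen after the values were seen, TEAD4 made up 21.2% to 29.5% in Vehicle tumors and 17.1% to 20.5% in NMN tumors. The groups did not overlap in this share. Among all tested genes 3.05% did not overlap by level, 2.08% with NMN above and 0.966% with NMN below.

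By mean level the order in Vehicle tumors was VGLL1, YAP1, VGLL4, WWTR1, TEAD3, TEAD2, TEAD4, TEAD1 and VGLL3. Neighbours whose ranges overlapped over the 4 tumors were VGLL1 and YAP1, YAP1 and VGLL4, WWTR1 and TEAD3, and TEAD2 and TEAD4. Within each Vehicle tumor VGLL1 was nonetheless above YAP1, by 91.1 to 76.9 TPM in Vehicle 1 and by 78.7 to 76.0 TPM in Vehicle 4. In NMN tumors VGLL4 stood ahead of YAP1, and VGLL1 no longer overlapped its neighbour VGLL4. There the ranges of VGLL4 and YAP1, YAP1 and WWTR1, WWTR1 and TEAD3, and TEAD3 and TEAD2 overlapped.

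The 4 TEAD genes together summed to 109, 108, 123 and 121 TPM in Vehicle 1 to 4 and to 113, 102, 132 and 122 TPM in NMN 1 to 4. YAP1 and WWTR1 together summed to 136, 110, 128 and 121 TPM in the Vehicle tumors and to 136, 117, 140 and 149 TPM in the NMN tumors. Both sums overlapped between groups, with NMN means 1.02 and 1.09 times the Vehicle means. Because VGLL1 was higher, its ratio to the summed TEAD transcripts was 0.84, 0.68, 0.79 and 0.65 in the Vehicle tumors and 1.25, 1.58, 1.08 and 0.95 in the NMN tumors. Its ratio to YAP1 and WWTR1 together was 0.67, 0.67, 0.76 and 0.65 in the Vehicle tumors and 1.04, 1.39, 1.02 and 0.78 in the NMN tumors. VGLL1 transcripts thus outnumbered those of YAP1 and WWTR1 combined in NMN 1 to 3 and in no other tumor. Of all 5 cofactor transcripts VGLL1 made up 28.9% to 32.6% in Vehicle tumors, 37.4% to 45.02% in NMN 1 to 3 and 32.5% in NMN 4, which by this share lay within the Vehicle range. These ratios contain the value VGLL1 was chosen for and have no test.

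**Figure D3:**
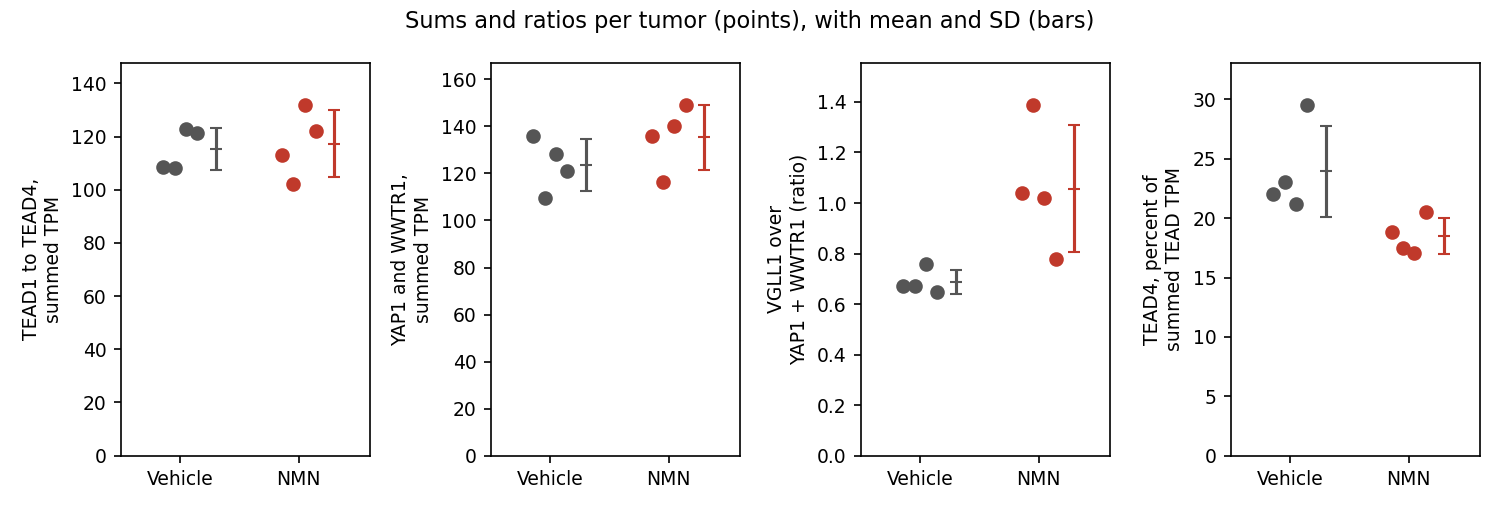
Summed TEAD level, summed YAP1 and WWTR1 level, ratio of VGLL1 to the latter, and the percent of TEAD transcripts from TEAD4, with 1 point per tumor and bars for the mean ± SD of 4 tumors, all axes starting at 0. Both sums overlap between groups. The VGLL1 ratio is 0.65 to 0.76 in Vehicle and 0.78 to 1.39 in NMN tumors, and the TEAD4 share is 21.2% to 29.5% against 17.1% to 20.5%.

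The kinases and scaffolds upstream of YAP and TAZ were all expressed and none passed. Of 24 genes of the Hippo kinase module, all tested, 0 passed after adjustment and 0 had an unadjusted p under 0.05, against 6.94% of all genes. In 19 of the 24 the mean log2 level was higher in NMN tumors, against 51% of all tested genes. The median of their log2 fold changes was 0.13 beside 0.0040 over all tested genes, and the largest difference from 0 was 0.40, in the kinase gene TNIK. After median-of-ratios scaling 2 members had an unadjusted p under 0.05, beside 1126 of all 13358 tested genes. The core kinase gene STK3 was at 68.3, 62.6, 62.9 and 54.9 TPM in Vehicle 1 to 4 and at 67.2, 66.0, 65.5 and 77.2 TPM in NMN 1 to 4 (log2 fold change 0.15 ± 0.10). STK4 had a log2 fold change of 0.11 ± 0.13, the adaptor SAV1 one of 0.24 ± 0.13 and the upstream scaffold NF2, which encodes merlin, one of 0.24 ± 0.20. The kinase genes nearest to YAP were low: LATS1 was at 7.94 ± 0.99 TPM in NMN and 8.10 ± 0.82 TPM in Vehicle tumors, and LATS2 at 5.30 ± 0.89 and 4.57 ± 0.25 TPM (SD, n = 4). MOB1B, a LATS activator, was the 1 of 24 without overlap, against 3.05% of all tested genes, at 4.84, 3.83, 5.12 and 4.02 TPM in the Vehicle and 5.37, 5.23, 5.61 and 5.89 TPM in the NMN tumors (adjusted p = 0.819). The most abundant, STK38, a relative of the LATS kinases, was at 104 ± 6.17 TPM in NMN and 94.7 ± 16.1 TPM in Vehicle tumors. WWC1, which encodes KIBRA, had a log2 fold change of 0.22 ± 0.13.

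Of 31 genes for proteins that bind YAP and TAZ or act from cell junctions and polarity complexes, 28 were tested and 0 passed. FAT4, DCHS1 and DCHS2, of the protocadherin branch, stayed below 0.4 TPM in each tumor. An unadjusted p under 0.05 was reached by 2 of the 28, both higher in NMN tumors, against 6.94% of all tested genes. The median log2 fold change of 0.06 became -0.0013 without NMN 4 and 0.13 without NMN 2. RUNX3, a transcription factor that binds TEADs and YAP, was at 27.5, 16.8, 16.7 and 10.9 TPM in Vehicle 1 to 4 and at 41.0, 18.2, 42.0 and 36.5 TPM in NMN 1 to 4. NMN 2 lay within the Vehicle range and the other 3 above it, and the log2 fold change was 0.90 ± 0.29 (adjusted p = 0.449). TP53BP2, which encodes the YAP-binding protein ASPP2, was at 27.3, 23.8, 27.5 and 28.6 TPM in the Vehicle and 30.2, 33.9, 31.8 and 38.9 TPM in the NMN tumors, without overlap (log2 fold change 0.32 ± 0.12, adjusted p = 0.562). The only other gene of the list without overlap was the polarity gene PATJ (0.19 ± 0.12, adjusted p = 0.860), so 2 of 28 did not overlap, against 3.05% of all tested genes. The atypical cadherin FAT1 had a log2 fold change of -0.41 ± 0.19, the angiomotin gene AMOT one of 0.42 ± 0.28 and the phosphatase PTPN14 one of -0.03 ± 0.21, with adjusted p-values of 0.733, 0.874 and 0.996. SFN, the 14-3-3 protein of epithelia, was the most abundant, at 1822 ± 121 TPM in NMN and 2174 ± 771 TPM in Vehicle tumors (SD, n = 4).

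Known target genes of YAP and TAZ did not share a direction, and none passed. Of 22 targets, 2 of which (LATS2 and PTPN14) are also in the lists above as feedback regulators, 21 were tested and 0 passed. The mean log2 level was higher in NMN tumors for 13 and lower for 8, where it was higher for 51% of all tested genes. Their median log2 fold change was 0.09, with values from -0.02 (without Vehicle 2) to 0.14 (without NMN 2) when a library was left out. An unadjusted p under 0.05 was reached by 2 of 21, IGFBP3 and AMOTL2, both higher, against 6.94% of all tested genes. CCN1, a matricellular protein gene, was at 43.5, 26.0, 51.3 and 26.6 TPM in Vehicle 1 to 4 and at 35.3, 34.5, 52.7 and 42.6 TPM in NMN 1 to 4 (log2 fold change 0.20 ± 0.22, adjusted p = 0.951). CCN2, with 3 TEAD motifs in the stretch printed above, was at 22.0, 16.6, 26.7 and 12.95 TPM in the Vehicle and 24.2, 14.0, 35.3 and 36.2 TPM in the NMN tumors (0.43 ± 0.29, adjusted p = 0.878). For both genes tumors of each group lay among those of the other. ANKRD1, a muscle and stress gene, had the lowest fold change of the list, -0.51 ± 0.37, at 0.78 to 4.54 TPM in Vehicle and 0.15 to 2.03 TPM in NMN tumors (adjusted p = 0.896). Without Vehicle 3 it was -0.18 and with a pseudocount of 0.1 it was -0.94.

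AMOTL2, an angiomotin that feeds back on YAP, was at 17.9, 22.5, 24.5 and 22.8 TPM in Vehicle 1 to 4 and at 30.3, 22.7, 31.7 and 25.7 TPM in NMN 1 to 4. NMN 2 was the 1 NMN tumor within the Vehicle range, and the log2 fold change was 0.32 ± 0.14 (adjusted p = 0.712). IGFBP3, a binding protein of insulin-like growth factors, was at 39.3, 27.6, 38.5 and 20.2 TPM in the Vehicle and 78.9, 81.2, 104 and 29.8 TPM in the NMN tumors. NMN 4 lay within the Vehicle range and the other 3 far above it, with a log2 fold change of 1.11 ± 0.34 (adjusted p = 0.391). Without NMN 4 it was 1.49 and passed (adjusted p = 0.0206, against 0.119971 to 0.999813 in the other settings). AXL, a receptor tyrosine kinase, had a log2 fold change of -0.37 ± 0.18 (adjusted p = 0.752). CCDC80 was the 1 of 21 targets without overlap, against 3.05% of all tested genes, at 3.60, 3.48, 3.75 and 4.50 TPM in the Vehicle and 3.19, 2.46, 2.95 and 3.42 TPM in the NMN tumors (-0.27 ± 0.15, adjusted p = 0.8294). F3, the tissue factor gene, had the highest mean of the targets over all 8 tumors, at 60.3 ± 16.1 TPM in NMN and 58.1 ± 34.0 TPM in Vehicle tumors (SD, n = 4). In NMN tumors alone the mean of IGFBP3, 73.4 TPM, was higher.

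**Figure D4:**
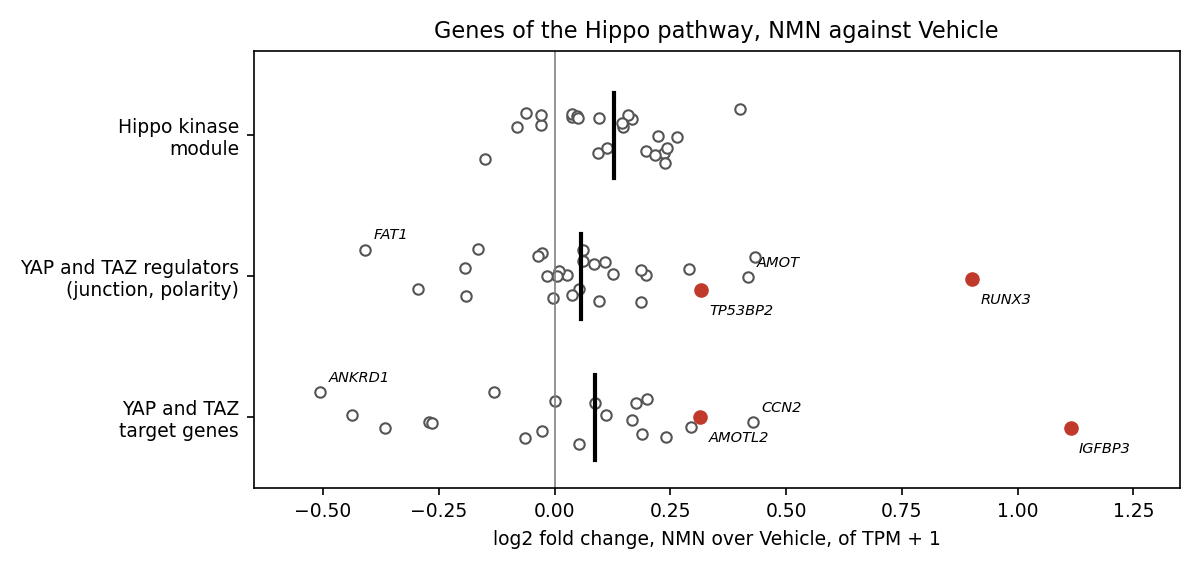
Log2 fold change, NMN over Vehicle, of TPM + 1 for each tested gene of the 3 pathway lists, with 1 point per gene (filled where the unadjusted p is under 0.05) and a black line at the list median. The medians are 0.13, 0.06 and 0.09, none of the genes passed after adjustment, and IGFBP3 (1.11) and RUNX3 (0.90) lie farthest to the right.

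IGFBP5, which VGLL1 together with TEADs has been described to activate in cultured cells, was at 31.8, 21.7, 41.0 and 17.3 TPM in Vehicle 1 to 4 and at 35.9, 40.0, 79.6 and 59.7 TPM in NMN 1 to 4. NMN 1 and NMN 2 lay within the Vehicle range, below Vehicle 3, and NMN 3 and NMN 4 above it. Whether VGLL1 acts on IGFBP5 in these tumors was not tested. The log2 fold change was 0.92 ± 0.29, from 0.30 to 1.55, and did not pass (adjusted p = 0.413).

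The genes whose profile over the 8 tumors was nearest to that of VGLL1 were sought among the other tested genes with a mean of at least 5 TPM. The measure was the root mean square difference between the 2 genes' deviations from their own 8-tumor mean of log2(TPM + 1), where 0 is an identical profile. Over 10805 genes its median was 0.44, and the nearest 6 were GOLGA8A (0.12), LRRC27 (0.15), PHYH (0.16), BNIP3L (0.16), NXPH4 (0.17) and CFAP36 (0.17). Since VGLL1 was picked for a gap between the groups, genes near it share much of that gap, and none of the 6 is tested here. GOLGA8A, a golgin gene with near-identical copies that make its counting uncertain, was at 19.7, 13.3, 20.5 and 17.2 TPM in the Vehicle and 25.1, 31.7, 26.8 and 20.8 TPM in the NMN tumors. BNIP3L, a mitophagy receptor, was at 65.8, 53.3, 69.2 and 45.02 TPM in the Vehicle and 75.0, 97.7, 83.7 and 66.6 TPM in the NMN tumors. In both genes, as in VGLL1, Vehicle 1 and Vehicle 3 were the higher Vehicle tumors, NMN 2 the highest and NMN 4 the lowest NMN tumor. PHYH, a peroxisomal hydroxylase, differed in that NMN 4, at 43.6 TPM, was as high as the rest of its group (41.7 to 46.9 TPM).

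Among the members VGLL4 was nearest to VGLL1, at rank 326 of the 10805 genes with a difference of 0.29, followed by WWTR1 at rank 790 (0.33). TEAD4 was the farthest of the members compared, at rank 10174 (0.61). VGLL3, with a mean of 2.41 TPM, fell below the limit of 5 TPM and was not ranked. VGLL1 itself varied by 0.39 around its mean, so that a gene with a flat profile would score 0.39, and YAP1 scored 0.42.

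**Figure D5:**
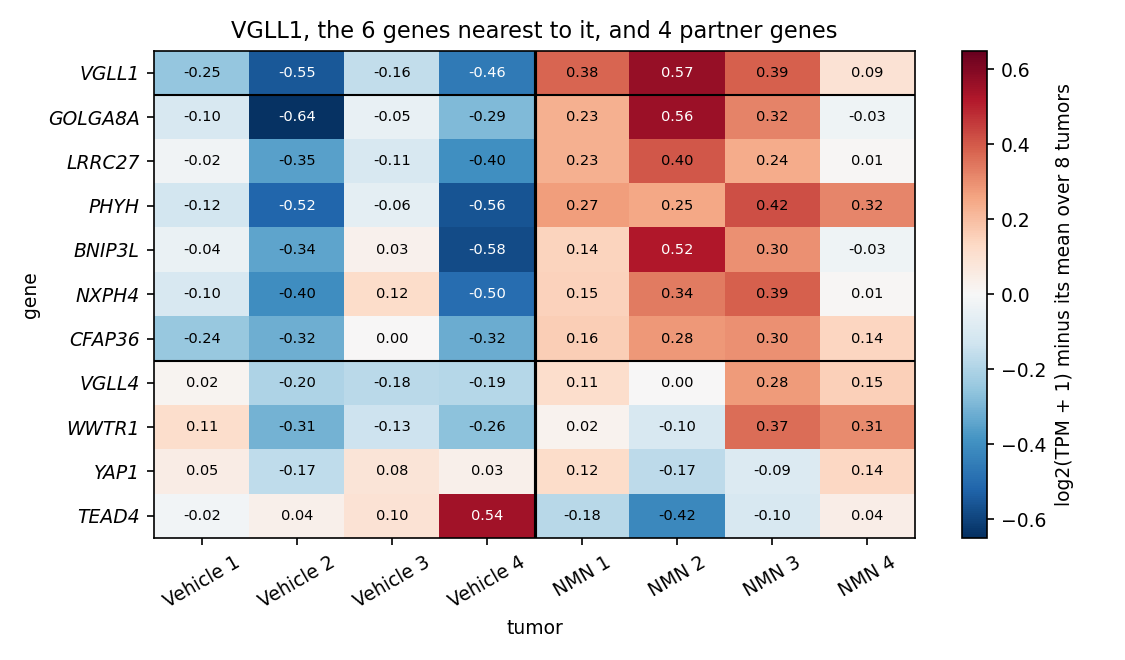
Deviation of log2(TPM + 1) from its 8-tumor mean, in color and in numbers, for VGLL1, the 6 genes nearest to it and 4 partners. Rows are genes and columns are tumors, with a line between the groups. VGLL1 and the 6 genes are lowest in Vehicle 2 or Vehicle 4 and highest in NMN 2 or NMN 3, whereas TEAD4 is highest in Vehicle 4 and lowest in NMN 2.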

How the data were processed

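The authors deposited 1 table of TPM per gene for the 8 tumors, named so in its column headers. Tools named in the submitters' processing notes, without their roles, are RSEM 1.2.8, HISAT2 2.1.0 and Bowtie2 2.2.5, with GRCh38.p13 as the build. The sources used here do not give the handling of mouse reads or the strandedness of the libraries, and host reads assigned to human genes may contribute to the values.

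Genes with at least 1 TPM in at least 4 libraries entered a fit of log2(TPM + 1) on group alone (limma 3.58.1, R 4.3.3, variance trend on), followed by Benjamini-Hochberg adjustment at 0.05 over all 13358 genes. Fold changes on this scale understate those of low genes. The model was tested on simulated data with independent noise for each gene, so that test does not cover shifts shared by many genes. No depth is recorded, so no counting interval is given.

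The members, the pathway and marker lists and the tests were chosen with earlier results of these data known. Named are the 9 members, VGLL2, CCN1, CCN2, ANKRD1, AMOTL2, AXL, LATS1, LATS2, STK3, STK4, SAV1, NF2, AMOT, PTPN14 and IGFBP5, in each list the 3 genes with the smallest p and the most abundant one, the 6 genes most like VGLL1, and genes needed to describe a count. PALS1 was matched as MPP5 by gene identifier. The muscle, fibroblast and epithelial lists are described beside VGLL1. An unadjusted p under 0.05, reached by 6.94% of all tested genes, was reached by 1 of 2 tested endothelial genes (KDR, higher in NMN tumors), by 1 of 6 myeloid genes (AIF1, lower) and by 0 of 2 genes for hormone receptors and HER2. The other tested endothelial gene, VWF, had the lower mean in NMN tumors. Of the 6 myeloid genes 5 had the lower mean log2 level in NMN tumors and 1, CD68, the higher. Alternatives tried were a pseudocount of 0.1 or 5, no filter or one at 5 TPM, a robust fit, a fit without the variance trend, median-of-ratios scaling, quantile normalization, the replicate number as a block, and each library left out.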

Additional observations from a re-analysis of the deposited data

Results flagged for a closer look

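Within groups of 4 tumors a single value can lie far from the other 3 relative to the range of the group (Dixon's criterion at its 95% critical value). Of 102 groups of values examined 7 met it, where chance flags about 1 in 20. VGLL4 was at 80.2 TPM in Vehicle 1 against 68.8 to 69.9 TPM in the other Vehicle tumors. TEAD4 was at 35.9 TPM in Vehicle 4 against 24.0 to 26.0 TPM. TEAD1 was low in Vehicle 2, at 6.64 TPM against 8.86 to 9.26 TPM. VGLL2 was at 0.06 TPM in Vehicle 4 and listed at 0 in the others. STK3 was at 77.2 TPM in NMN 4 against 65.5 to 67.2 TPM in the other NMN tumors, and PATJ at 13.1 TPM in Vehicle 3 against 14.6 to 14.7 TPM. The share of VGLL1 among the 5 cofactor transcripts was 32.6% in Vehicle 3 against 28.9% to 29.5% in the other Vehicle tumors.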

How the results depend on the processing

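VGLL1 kept its direction in all 17 other settings, with a log2 fold change from 0.64 to 0.80. Genes that passed numbered 0 as reported, 2 with the replicate number as a block (FCGR3B and HSD11B2, named after their values were seen) and 0 to 54 with a library left out: 54 without NMN 4, none of them among the 8 members other than VGLL1, and 1, THRSP, without Vehicle 3. The count at an unadjusted p under 0.05 was 927, and 568 (without NMN 3) to 1276 (without NMN 4) with a library left out. It was 1126 with median-of-ratios scaling, 1154 with quantile normalization and 901 with a robust fit. Without the variance trend it was 905, and with a pseudocount of 5 it was 925. The labels number the tumors and do not say whether the numbers pair them. The deviations of same-numbered tumors correlated at 0.026, 0.00094, -0.032 and -0.12. Of 4 NMN tumors 0 correlated best with its own number. With 4 tumors a group these correlations cannot decide whether the tumors were paired. With the replicate number as a block, 1094 genes had an unadjusted p under 0.05. Of the 8 members other than VGLL1, those with an unadjusted p under 0.05 numbered 1 as reported, 2 with a pseudocount of 5 or the replicate block, 3 with median-of-ratios scaling, quantile normalization or a robust fit, and 0 to 3 with a library left out. For the Hippo kinase module the count was 0, but 2 with median-of-ratios scaling, 1 with quantile normalization or no variance trend, and 0 to 1 with a library left out. For the regulators it was 2, and 2 to 4 with a library left out, and for the targets 2, with 4 after quantile normalization and 1 to 3 with a library left out. YAP1 changed sign with quantile normalization (0.0018). With a library left out the sign of 7 log2 fold changes turned, in the ranges -0.057 to 0.055 for YAP1, -0.23 to 0.068 for VGLL3, -0.15 to 0.094 for TEAD1, -0.091 to 0.026 for LATS1, -0.16 to 0.13 for PTPN14, -0.34 to 0.019 for SFN and -0.062 to 0.52 for F3. The cause of these changes was not tested. Depth is unknown and 4 tumors a group limit the precision: the 95% interval of VGLL3, the lowest member, spans -0.59 to 0.46. A p that misses the threshold does not show equal levels.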
